A study of Rattus norvegicus with 8 samples.

Results

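RNA was compared between the livers of 2 rats given atorvastatin and 2 control rats, none of which received hexachlorobenzene (HCB), a chlorinated fungicide that persists in the environment. These 4 libraries were chosen by their labels from the 8 of the series, the other 4 being livers of rats given HCB with or without atorvastatin. The animals are labelled as male Wistar rats, an outbred laboratory strain, that weighed 160 g at the start, and their age is not stated. Control rats received vehicle only. Atorvastatin rats received the drug in drinking water for 30 days, and the animals were killed on day 37. The stated dose is 5 mg/kg of body weight per day, whereas the stated recipe of 5 mg in 20 mL of water per rat per day comes to 31.25 mg/kg at the starting weight. Each group held 5 rats, of which 2 were sequenced, and each library comes from a different rat, named below by its group and the labels' replicate number (Control 1, Atorvastatin 2). How those 2 were picked is not given in the sources used here.

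Atorvastatin is a statin, a drug that blocks the mevalonate pathway, which leads to cholesterol. When sterols in the endoplasmic reticulum fall, the transcription factor SREBP2 is released from its anchor there, enters the nucleus and raises transcription of the enzymes of cholesterol synthesis. The related factor SREBP1c drives the genes of fatty acid synthesis in liver.

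The 4 libraries held between 29.4 M and 43.8 M reads assigned to exons (M, reads in units of 1e6), and levels below are CPM, counts per M assigned reads, after TMM scaling unless stated otherwise. Liver markers were high: by counts per kb of exon the leading genes were Alb, Mt-co1, Rpph1, Ahsg, Mt-co3, Afp, Mt-co2, Mt-atp6, Tf and H19, and albumin (Alb) alone took 6.50% to 10.3% of the assigned reads. Fetal liver genes stood among them. Scaled across all 8 libraries, alpha-fetoprotein (Afp) was at 11414 to 29746 CPM in these 4 libraries against 70.1 to 145 CPM in the HCB-given ones, and the imprinted RNA H19 was at 13363 to 18239 against 49.3 to 108 CPM. On the same scale the Y-linked gene Kdm5d was at 0.189 to 0.457 CPM here and at 24.9 to 27.4 CPM in the HCB-given libraries, and Ddx3 on chromosome Y was at 0.0474 to 0.559 against 64.1 to 96.7 CPM, which goes against the label male for all 4 animals. Levels this high of fetal liver genes also sit poorly with the labelled starting weight of 160 g and 30 days of treatment. Whether these libraries come from the labelled animals was not tested. Both groups compared here share this profile, so the comparison is given as one between the libraries labelled atorvastatin and control. The words "under atorvastatin" below refer to that label.

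The 4 libraries differed among themselves in how many reads fell outside annotated exons, a class that holds intronic and intergenic sequence. This share was 27.7% in Control 1, 15.3% in Control 2, 34.0% in Atorvastatin 1 and 19.5% in Atorvastatin 2. The first library of each group was thus high, the second low, and the groups overlapped. The atorvastatin mean was 26.8% ± 10.3 (SD, n = 2) and the control mean 21.5% ± 8.79 (SD, n = 2), a difference of 5.30 percentage points with a 2-sided exact permutation p of 0.667, where 0.333 is the smallest p that 2 against 2 can give. The HCB-given libraries held 7.46% to 11.4%. Multimapping reads took 20.3% and 13.2% in the controls and 21.0% and 10.4% under atorvastatin. Of the reads assigned to exons, ribosomal RNA genes took 1.97%, 1.00%, 2.33% and 0.905% in Control 1, Control 2, Atorvastatin 1 and Atorvastatin 2, again higher in the first library of each group.

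**Figure D1:**
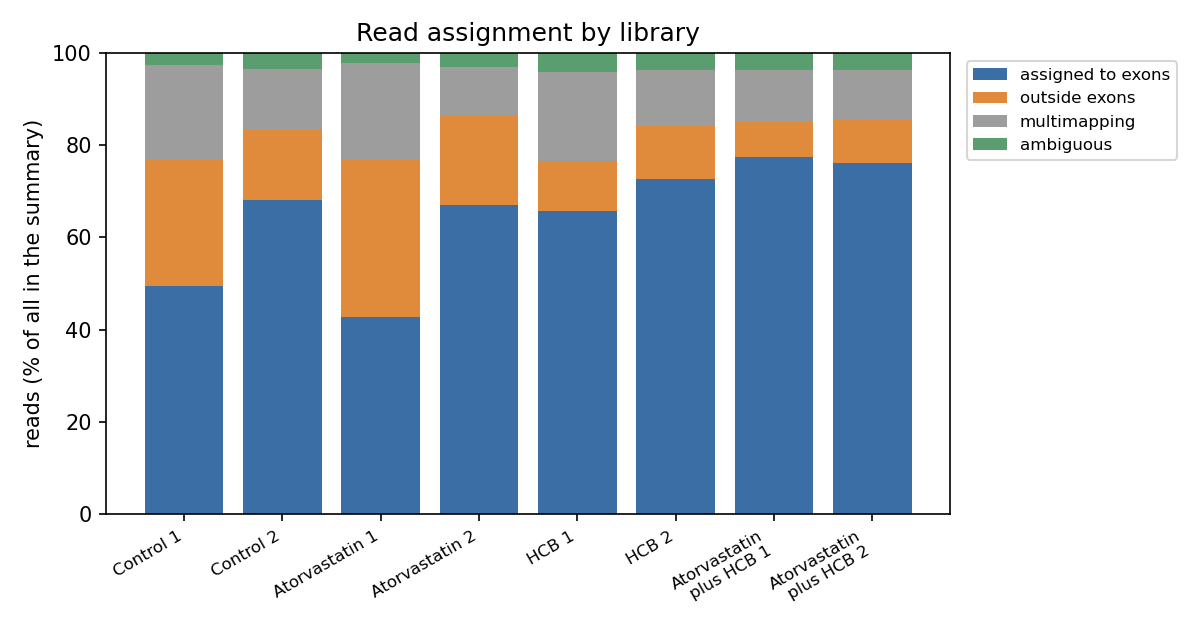
Share of reads in each assignment class (y axis, percent of all reads in the deposited summary) for the 8 libraries (x axis), as stacked bars. The outside-exon class is largest in Atorvastatin 1 (34.0%) and Control 1 (27.7%), and smaller in the second library of each of these groups.

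Gene levels followed the same division. Between Control 1 and Atorvastatin 1, 1139 genes differed by 2-fold or more, and between Control 2 and Atorvastatin 2, 1593 did. The 2 controls differed from each other in 2019 genes and the 2 atorvastatin libraries in 2343. Across genes, r of log2 CPM was 0.977 and 0.973 for those 2 pairs of unlike treatment and 0.969 and 0.957 within the control and the atorvastatin group (15896 genes, which are not independent replicates). Of the sum of squares of log2 CPM over the 4 libraries, 22.4% lay between treatments, 50.1% between the libraries with high and low outside-exon shares, and 27.5% in the remainder. The first principal component held 50.9% of the variance and placed both first libraries on one side and both second libraries on the other. Whether RNA quality or handling sets this division was not tested, and the outside-exon share and the replicate number cannot be told apart here.

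To ask which genes differed with atorvastatin alone, the 4 libraries were compared with edgeR's quasi-likelihood test. No gene passed: 0 of 15896 genes tested (0%) had an adjusted p under 0.05, and 151 (0.95%) had an unadjusted p under 0.05. The model of all 8 libraries also called 0 of 16591 genes, with 181 (1.09%) at an unadjusted p under 0.05. DESeq2 on the 4 libraries called 2 genes (0.0126%), Abhd3 and an unnamed gene, ENSRNOG00000066867. The common biological coefficient of variation was 0.308 and the median standard error (SE) of a log2 fold change was 0.32 with 2 residual degrees of freedom. In 12604 genes (79.3%) the groups differed by less than the mean difference between replicates. Both atorvastatin values lay above both control values in 1637 genes (10.3%) and below them in 1655 (10.4%). The log2 fold change was above 0 in 51.6% of genes, 490 genes (3.08%) were 2-fold or more higher and 213 (1.34%) 2-fold or more lower.

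Few genes differed alike in both library pairs. From Control 1 to Atorvastatin 1 and from Control 2 to Atorvastatin 2, 107 genes were at least 2-fold higher both times, 58 at least 2-fold lower both times, and 230 moved 2-fold in opposite directions. Across genes the r of both sets of differences was -0.10. Of the 165 genes with like 2-fold differences, 23 had a mean above 1 CPM in both groups. They include Scd, Cdh11, Ugt2b and the immediate early gene Fos on the higher side, and Pbld1, Gys2, Scgb1a1 and the serine dehydratase gene Sds on the lower side. Abhd3, whose control mean is below 1 CPM, also differed alike in both.

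**Figure D2:**
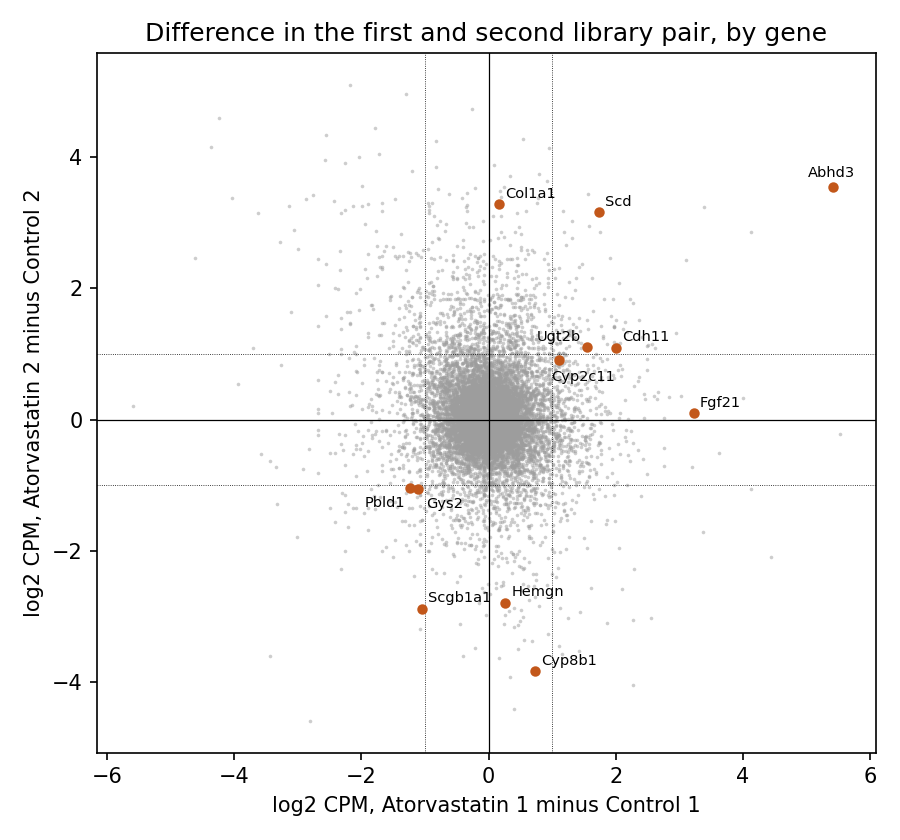
Each point is 1 of 15896 genes: log2 CPM of Atorvastatin 1 minus Control 1 (x axis) against Atorvastatin 2 minus Control 2 (y axis), with dotted lines at 2-fold. Abhd3 lies farthest to the upper right, Col1a1 and Cyp8b1 differ in the second pair, Fgf21 differs in the first, and the cloud as a whole shows little slope (r = -0.10).

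The gene with the smallest p was Abhd3 (ENSRNOG00000029370, mRatBN7.2 chromosome 18, 1720718 to 1803428, minus strand), which encodes an alpha/beta hydrolase that cleaves medium-chain phospholipids. It was at 0.243 and 0.453 CPM in the controls and at 12.7 and 5.88 CPM under atorvastatin, from 24 reads in both controls together and 679 in both atorvastatin libraries. The groups did not overlap, and the log2 fold change was 4.71 ± 0.57 (SE), with an unadjusted p of 9.23756e-05 and an adjusted p of 1.00 by edgeR. DESeq2 gave an adjusted p of 1.89612e-11. Scaled across all 8 libraries Abhd3 also varied among rats given HCB, at 0.443 and 2.80 CPM with HCB alone and at 3.76 and 0.405 CPM with HCB and atorvastatin. In each of those groups the 2 rats differed several-fold.

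Of the other 7 genes named for a higher level, LOC298116 had the highest CPM in every library. Cdh11, a mesenchymal cadherin (chromosome 19, 2148458 to 2304272), was at 5.36 and 7.34 CPM in the controls and at 21.7 and 15.8 CPM under atorvastatin, a log2 fold change of 1.56 ± 0.30. Ugt2b, a UDP-glucuronosyltransferase that conjugates steroids and drugs, was at 4.66 and 5.50 against 13.7 and 11.9 CPM (log2 1.33 ± 0.27). Both sets of values stood clear of each other in these 2 genes, and neither passed the test, with an adjusted p of 1.00 for both by edgeR and of 0.0867 for Cdh11 and 0.213 for Ugt2b by DESeq2. Several others, Cyp2c11 and Obp3 among them, are genes that adult male rat liver expresses at high levels. They were named for a higher level, and other cytochrome P450 genes of liver were lower. Cyp2a2 was at 7.70 and 8.22 CPM in the controls and at 4.29 and 4.01 CPM under atorvastatin (log2 -0.94 ± 0.29). Cyp3a18, given below, was lower too (log2 -1.06 ± 0.27). The testosterone hydroxylase Cyp2c11 was at 5.81 and 5.67 CPM in the controls and 12.6 and 10.7 CPM under atorvastatin (log2 1.02 ± 0.27). Scaled over all 8 libraries, the HCB-given livers held 2641 to 4101 CPM of Cyp2c11, so both groups here were far below that level. Obp3 (1.86 and 2.07 against 5.55 and 4.63 CPM), Rup2 (3.83 and 3.40 against 8.13 and 7.67 CPM), LOC298116 (45.3 and 43.1 against 78.9 and 74.3 CPM) and LOC103693047 (9.86 and 7.94 against 17.9 and 16.9 CPM) completed the 8. Genes of multigene families such as these, Ugt2b and the cytochromes P450 share sequence with close copies, and reads mapping to more than 1 place were not counted, so their levels are uncertain.

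In the model of all 8 libraries the rule also named Mettl7b, Spp1, Car3, Hsd17b6 and Hsd3b5 on the higher side. Hsd3b5, a ketosteroid reductase of male liver, was at 1.61 and 1.33 CPM in the controls and 3.84 and 3.26 CPM under atorvastatin. The carbonic anhydrase Car3 was at 19.3 and 27.0 against 37.5 and 132 CPM, so that Atorvastatin 2 carried most of its difference. Hsd17b6 was at 0.730 and 2.44 against 4.41 and 5.45 CPM. Within the list of sex-predominant liver genes, 5 of 12 tested genes had both atorvastatin values above both control values and 2 below, against 10.3% and 10.4% of all genes, with 0 called. That list mixes male- and female-predominant genes, so the count has no direction by sex.

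On the lower side the smallest p belonged to Pbld1 (ENSRNOG00000000386, chromosome 20, 25551275 to 25565614), a phenazine biosynthesis-like domain protein. It was at 56.8 and 58.7 CPM in the controls and at 24.2 and 28.6 CPM under atorvastatin (log2 -1.13 ± 0.21, unadjusted p = 0.00103 and adjusted p = 1.00 by edgeR). Gys2, the glycogen synthase of liver (chromosome 4, 175365054 to 175406228), was at 121 and 164 CPM in the controls and at 56.2 and 78.7 CPM under atorvastatin (log2 -1.08 ± 0.27). For both genes each atorvastatin library was at least 2-fold below the control of the same number. Gfra1, the receptor subunit for glial cell line-derived neurotrophic factor, was at 55.7 and 54.9 against 35.4 and 30.7 CPM. The pantetheinase Vnn1, a target of the fatty acid sensor PPAR-alpha, was at 85.7 and 99.5 against 53.1 and 58.0 CPM. These 2 genes differed by less than 2-fold, with replicates close together. C3ar1, the receptor for complement C3a, was at 16.5 and 14.5 against 7.84 and 7.37 CPM. Scgb1a1, a secretoglobin of airway epithelium, was at 24.8 and 37.4 against 12.0 and 5.03 CPM. The small nucleolar RNA LOC120093322 rested on the single Control 2 value of 3.68 CPM beside 0.335, 0 and 0.0996 CPM elsewhere. Efna1 (48.1 and 74.1 against 29.1 and 36.7 CPM) and Hydin (1.64 and 1.25 against 0.401 and 0.349 CPM) were added by the model of all 8 libraries.

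**Figure D3:**
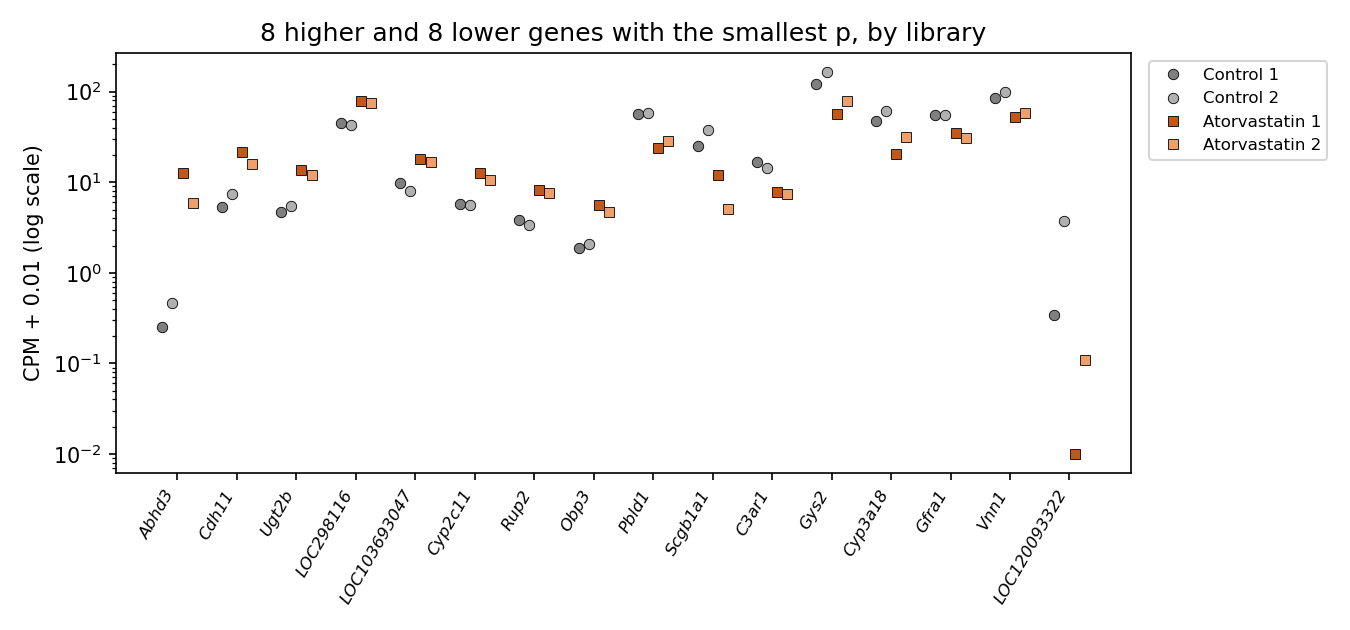
CPM plus 0.01 on a log axis (y) in each of the 4 libraries for the 8 higher and 8 lower genes with the smallest p (x axis). Circles are control and squares atorvastatin libraries, and the groups do not overlap for any of the 16 because the rule for naming them asked for that.

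The direct question for a statin is whether genes of cholesterol synthesis differed. Of 25 genes of this pathway and its SREBP2 targets, 0 were called (0% of all genes tested) and 0 had an unadjusted p under 0.05, against 0.95% of all genes. The log2 fold change was above 0 in 24 of the 25, against 51.6% of all genes, with a median of 0.23 beside 0.01 over all genes, so the differences were small and mostly of one sign. The list was known from earlier results of these data to lean this way. Most of it came from 1 library: Atorvastatin 2 was the highest of the 4 libraries in 21 of the 25 genes. The median difference was 0.04 from Control 1 to Atorvastatin 1 and 0.49 from Control 2 to Atorvastatin 2, and without Atorvastatin 2 the median log2 fold change turned to -0.24.

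Hmgcs1, the HMG-CoA synthase at the head of the mevalonate pathway, was at 768 and 1029.7 against 634 and 1308 CPM. Downstream, the isomerase Idi1 was at 64.1 and 102 against 56.0 and 113 CPM, and the squalene epoxidase Sqle at 74.7 and 121 against 73.0 and 143 CPM. In each of these 3 genes Atorvastatin 1 was the lowest and Atorvastatin 2 the highest library. The groups were apart in 2 of the 25 genes of the list, both with atorvastatin higher (10.3% of all genes). Pmvk, the phosphomevalonate kinase, was 1 of these 2, at 3.53 and 3.51 against 4.01 and 8.24 CPM. Mvk, the mevalonate kinase, was at 18.2 and 22.3 against 21.1 and 33.4 CPM. Insig1, which holds SREBP in the endoplasmic reticulum, ranged over 121 and 393 CPM in the controls and 191 and 489 CPM under atorvastatin.

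**Figure D4:**
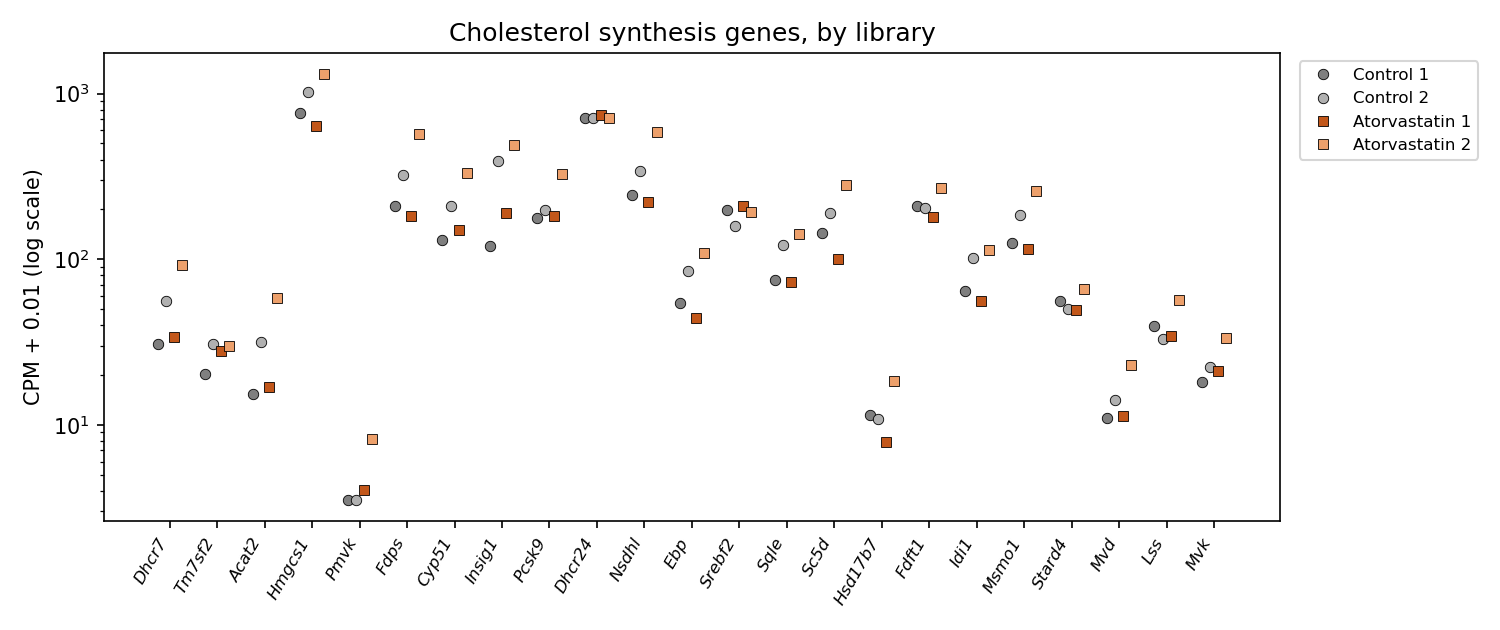
CPM plus 0.01 on a log axis (y) of 23 genes of cholesterol synthesis and SREBP2 targets (x axis) in the 2 control libraries (circles) and 2 atorvastatin libraries (squares). Atorvastatin 2 is the highest in 20 of these 23, and Atorvastatin 1 lies among or below the controls for most.

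The promoters of the cholesterol synthesis list are shown as background, since SREBP2 acts with the CCAAT-binding factor NF-Y. Their letters come with the choice of list and do not depend on these libraries. They cannot show why levels differed, and a part of SREBP2 or NF-Y here was not tested. RefSeq promoter windows (build GRCr8, 250 bases before to 50 after the start) were matched by symbol for 17 of the 25 genes. Searched on both strands, CCAAT occurred in 14 of the 17 windows (82.4%), against 37.5% of all 33469 windows of the same length. It occurred in 37.2% of the 12754 windows of genes tested. The fatty acid and triglyceride synthesis list described below had it in 9 of 13 windows (69.2%). The list of sterol efflux and bile acids had it in 5 of 12 (41.7%). The E-box CACGTG occurred in 2 of the 17, in 6.42% of all windows and in 8.69% of those of genes tested. The sterol regulatory element spelled TCACNCCAC occurred in 0 of the 17 and in 1.12% of all windows, which says only that these letters are not in these windows. The 3 motifs do not overlap in spelling. The windows of 3 genes named above follow, 5′ to 3′ on the coding strand, with CCAAT or its reverse complement ATTGG in capitals.
Hmgcs1, chr2:53382054-53382353, plus strand: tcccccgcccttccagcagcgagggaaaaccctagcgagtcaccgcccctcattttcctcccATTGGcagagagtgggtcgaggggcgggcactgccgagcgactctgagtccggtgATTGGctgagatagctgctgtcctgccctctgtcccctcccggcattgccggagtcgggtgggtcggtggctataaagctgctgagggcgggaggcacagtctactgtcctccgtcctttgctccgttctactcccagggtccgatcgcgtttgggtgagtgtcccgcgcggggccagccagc
Idi1, chr17:66547475-66547774, minus strand: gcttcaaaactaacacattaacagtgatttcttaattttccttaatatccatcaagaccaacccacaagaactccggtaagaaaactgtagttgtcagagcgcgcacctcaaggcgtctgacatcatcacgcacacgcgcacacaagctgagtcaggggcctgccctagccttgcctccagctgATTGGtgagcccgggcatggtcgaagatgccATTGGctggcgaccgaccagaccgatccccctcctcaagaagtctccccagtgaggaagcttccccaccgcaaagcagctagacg
Insig1, chr4:8057720-8058019, minus strand: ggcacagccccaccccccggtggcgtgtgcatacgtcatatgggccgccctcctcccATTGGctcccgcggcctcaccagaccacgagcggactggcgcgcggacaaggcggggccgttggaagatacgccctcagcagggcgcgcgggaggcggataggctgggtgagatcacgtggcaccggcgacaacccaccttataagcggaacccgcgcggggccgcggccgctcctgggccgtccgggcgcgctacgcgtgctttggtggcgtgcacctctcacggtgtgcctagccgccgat
Hmgcs1 and Idi1 each hold 2 matches and Insig1 holds 1, all in the ATTGG orientation. These are matches of letters and not measured binding sites.

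Genes of fatty acid and triglyceride synthesis had the higher median among the lipid lists, 0.68, with a log2 fold change above 0 in 17 of 18 and 0 called. Both groups were apart in 5 of the 18, all with atorvastatin higher (10.3% of all genes). By edgeR 5 had an unadjusted p under 0.05, against 0.95% of all genes. Atorvastatin 2 was the highest library in 18 of 18. Scd, the stearoyl-CoA desaturase (chromosome 1, 243269747 to 243282562), was at 13.5 and 32.6 CPM in the controls, 44.9 CPM in Atorvastatin 1 and 294 CPM in Atorvastatin 2 (log2 2.88 ± 0.85). The lipase gene Pnpla3 was at 3.29 and 2.52 against 4.15 and 33.9 CPM. The desaturase Fads2 was at 157 and 294 against 296 and 1704 CPM, and its neighbour Fads1 at 230 and 369 against 344 and 1727 CPM. For all 4, the second atorvastatin library was at least 5-fold above the first. Srebf1, the gene of the factor that drives this pathway, was even between replicates, at 219 and 229 CPM in the controls and 354 and 369 CPM under atorvastatin (log2 0.69 ± 0.24, unadjusted p = 0.0269 and adjusted p = 1.00 by edgeR). Thrsp, a lipogenic regulator that responds to thyroid hormone, was at 3.53 and 2.27 against 3.21 and 6.87 CPM. Without Atorvastatin 2 the median of the list was 0.03.

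Among 16 genes of sterol efflux and bile acids the median was 0.13, with 10 above 0 and 0 called. The sterol half-transporters Abcg5 (9.62 and 10.4 against 11.9 and 37.6 CPM) and Abcg8 (6.09 and 7.71 against 7.67 and 20.3 CPM) were highest in Atorvastatin 2. Cyp7a1, which starts the classic route from cholesterol to bile acids, was at 8.19 and 47.9 CPM in the controls, a range that held both atorvastatin values of 12.7 and 17.7 CPM. Cyp8b1, the sterol 12-hydroxylase, was at 69.8, 98.1 and 116 CPM in Control 1, Control 2 and Atorvastatin 1 and at 6.82 CPM in Atorvastatin 2. The genes of fatty acid oxidation and PPAR-alpha targets had a median of -0.03, with 11 of 26 above 0. Fgf21, a hepatokine induced by PPAR-alpha, was at 1.92 and 2.01 CPM in the controls, 18.4 CPM in Atorvastatin 1 and 2.17 CPM in Atorvastatin 2. Lipoprotein genes had a median of -0.04 with 6 of 19 above 0. For the isoprenoid branch and the small GTPases it feeds, the median was 0.10 and 8 of 15 were above 0. Of these 15 genes 0 were called, with 2 apart on the higher and 1 on the lower side, against 10.3% and 10.4% of all genes. Klf2, a flow-responsive factor known to be raised by statins in endothelium, was at 15.8 and 11.4 against 21.0 and 17.3 CPM (log2 0.50 ± 0.27). Rap1a was apart on the lower side, at 26.9 and 34.3 against 23.2 and 24.9 CPM (log2 -0.35 ± 0.23).

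Over 18 targets of the drug sensors CAR and PXR the median was -0.09, with 8 above 0 and 0 called. Of the 18, 1 was apart on the higher and 3 on the lower side, against 10.3% and 10.4% of all genes. The median was 0.31 without Control 2, 0.19 without Atorvastatin 1 and -0.53 without Atorvastatin 2. Cyp3a23-3a1, a classic target of the pregnane X receptor in rat liver, was at 340 and 541 CPM in the controls and at 206 and 280 CPM under atorvastatin (log2 -0.86 ± 0.33, and -0.48 without Control 2). Cyp3a18 was at 47.9 and 60.5 against 20.6 and 31.3 CPM (log2 -1.06 ± 0.27). The groups of both genes were apart, and neither passed the test (adjusted p = 1.00 by edgeR). Cyp1a1, the target of the aryl hydrocarbon receptor, was at 5.75 and 7.88 against 1.37 and 5.78 CPM.

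The medians of amino acid breakdown, plasma protein and mitochondrially encoded genes were below 0, and those of the plasma proteins changed sign with 1 library left out. For the urea cycle and amino acid breakdown the median was -0.35 and 2 of 16 genes were above 0. Oat, the ornithine aminotransferase, was at 24.8 and 34.6 against 12.8 and 20.5 CPM, and Gls2, the liver glutaminase, at 168 and 173 against 98.0 and 127 CPM. Complement and coagulation genes had a median of -0.17 with 2 of 20 above 0, and acute phase genes -0.08 with 4 of 19 above 0. The complement and coagulation median was 0.08 without Atorvastatin 1 and 0.05 without Control 2, and the acute phase median was 0.21 and 0.23. All 13 mitochondrially encoded genes were lower under atorvastatin, with a median of -0.61, 2 of the 13 apart (10.4% of all genes) and 0 called. Mt-co1, a subunit of cytochrome c oxidase, was at 30095 and 41364.5 CPM in the controls and at 17743.5 and 29087 CPM under atorvastatin. In each library pair the sign was the same for the 13 genes, with Atorvastatin 1 the lowest library throughout, and these transcripts share 1 genome and its transcription. The median was -0.16 without Atorvastatin 1, -0.26 without Control 2 and -1.23 without Atorvastatin 2, and that of the urea cycle list was -0.04 without Control 2. With library totals as the only scaling the median of all genes moved from 0.01 to 0.13, and the share of genes above 0 from 51.6% to 71.4%. Under that scaling the urea cycle median was -0.21 and the mitochondrial one -0.50, while those of acute phase and nuclear respiratory chain genes turned from -0.08 to 0.01 and from -0.10 to 0.03. In all, 13 of the 49 list medians changed sign with it.

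Of 15 oncofetal and imprinted growth genes 6 were above 0, with a median of -0.05 and 0 called. Each side held 1 gene apart, against 10.3% (higher) and 10.4% (lower) of all genes. In the rest of the 15, H19, Igf2 and Afp among them, the groups overlapped. H19 was at 20666 and 15992 against 21804 and 18421 CPM, the imprinted growth factor gene Igf2 at 10010.4 and 9675 against 9287 and 9716 CPM, and Afp at 14217 and 35598 against 13646 and 28986 CPM. Afp differed more within each group than between them. Igf2bp1, a fetal RNA-binding protein, was apart on the lower side, at 9.19 and 9.95 against 8.39 and 7.52 CPM (log2 -0.27 ± 0.26). Of 30 genes of the cell cycle 24 were above 0, with a median of 0.12, none apart and 0 called. All 30 were higher in Atorvastatin 1 than in Control 1 and 5 were higher in Atorvastatin 2 than in Control 2. The proliferation marker Mki67 was at 169 and 388 CPM in the controls and at 253 and 240 CPM under atorvastatin. Tat, a glucocorticoid-induced aminotransferase of adult liver, was at 200 and 808 against 322 and 473 CPM. Over the 49 lists, the median was smaller than the SD between replicates in 39, and it differed in sign between both library pairs in 18.

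Cell type markers were read as levels in bulk liver, where fewer cells of a type and less RNA per cell cannot be told apart. Hepatocyte markers summed to 154315 and 257121 CPM in the controls and to 133610 and 230605 CPM under atorvastatin, with 3 of 10 above 0. Blood-forming lineages, which the fetal liver houses, had negative medians. All 17 erythroid genes had a log2 fold change below 0 (median -0.60, 0 called). Of the 17, 1 was apart on the lower side, against 10.4% of all genes. With library totals as the only scaling, 3 of the erythroid genes were above 0. Their summed level was 4048 and 6434 CPM in the controls, 4870.2 CPM in Atorvastatin 1 and 2416 CPM in Atorvastatin 2, which was the lowest library in 17 of 17, while Atorvastatin 1 exceeded Control 1 in 16. Without Atorvastatin 2 the median was -0.06. The alpha globin gene Hba-a1 was at 3104 and 4948 against 3678 and 2036 CPM, and the globin chaperone Ahsp at 21.8 and 46.4 against 25.5 and 8.02 CPM.

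Megakaryocyte and platelet genes had a median of -0.86, with 0 of 10 above 0 and 4 apart on the lower side (10.4% of all genes). Their summed level was 44.2 and 61.0 CPM in the controls and 40.9 and 31.5 CPM under atorvastatin. The list median was -0.95 without Atorvastatin 1 and -0.71 without Atorvastatin 2, but -0.21 without Control 2. Neutrophil genes had a median of -0.36 with 3 of 16 above 0 and 0 called. Of the 16, 1 was apart on the higher and 5 on the lower side, against 10.3% and 10.4% of all genes. Their sums were 218 and 320 against 202 and 206 CPM, and without Control 2 the median was -0.06. Ngp, a granule protein, was at 69.0 and 90.7 against 56.4 and 67.3 CPM. The granule protease Prtn3 had reads in both controls (0.548 and 0.623 CPM) and 0 in both atorvastatin libraries, at least 7.33-fold lower against a floor of 6 reads over the group. Kupffer cell, T and NK cell, B cell and endothelial lists had medians between -0.17 and -0.07.

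Atorvastatin 2 stood apart from the other 3 libraries in markers of connective and fat tissue. Its stellate cell and fibroblast list summed to 5000.0 CPM, against 1765 and 1839 CPM in the controls and 1635 CPM in Atorvastatin 1. A few collagen genes carried most of this sum: Atorvastatin 2 was the highest library in 9 of the 13 genes, and the list median was 0.14, or 0.30 without Atorvastatin 1. Col1a1, the chain of type I collagen, was at 163, 166 and 182 CPM in Control 1, Control 2 and Atorvastatin 1 and at 1620.0 CPM in Atorvastatin 2. Col1a2 was at 249, 216 and 211 CPM elsewhere and 777 CPM there, and Col3a1, of type III collagen and chosen after its values were seen, at 446, 469 and 412 CPM elsewhere and 1564 CPM there. Smooth muscle genes summed to 246 and 241 CPM in the controls, 235 CPM in Atorvastatin 1 and 388 CPM in Atorvastatin 2. All 8 were highest in Atorvastatin 2 and 1 of 8 was higher in Atorvastatin 1 than in Control 1. Smooth muscle myosin Myh11 was at 4.60, 3.63 and 3.58 CPM elsewhere and 29.5 CPM there. The adipocyte and mesothelium list summed to 58.1 and 69.6 CPM in the controls, 52.0 CPM in Atorvastatin 1 and 164 CPM in Atorvastatin 2, which was the highest library in 5 of the 7 genes tested. The adipocyte gene Cfd had a negative log2 fold change, at 5.48 and 9.41 CPM in the controls and 3.32 and 5.78 CPM under atorvastatin (log2 -0.71 ± 0.42). Of the next 3 genes, chosen after their values were seen, the adipocyte hormone gene Adipoq was at 0.0609, 0 and 0.0573 CPM elsewhere and at 16.9 CPM there, and the lipid droplet gene Plin1 at 0.122, 0 and 0.115 CPM elsewhere and 16.6 CPM there. Neither passed the filter on low counts. The mesothelial gene Msln was at 6.94, 2.89 and 0.372 CPM elsewhere and 30.5 CPM there. These levels moved with the high lipogenic genes and the low erythroid genes of the same library, and their part in those results was not tested.

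**Figure D5:**
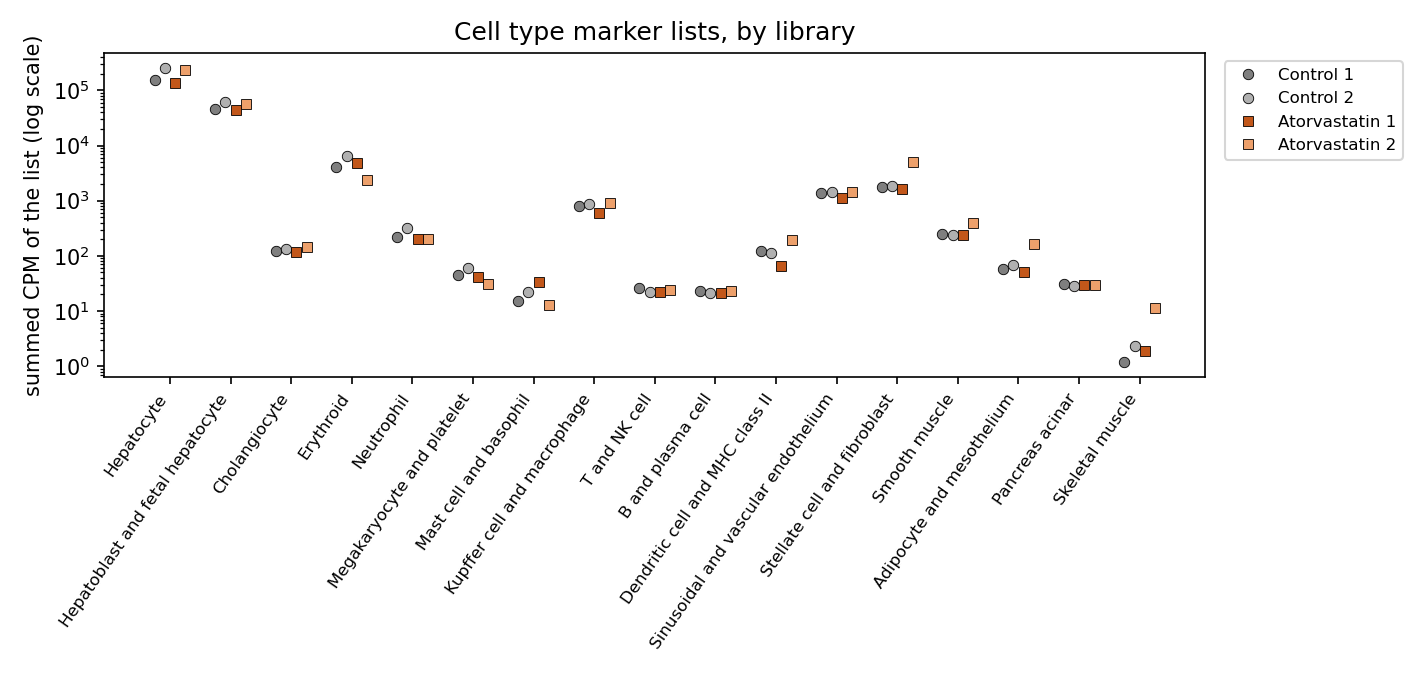
Summed CPM of each cell type marker list (x axis) on a log axis (y) in the 2 control libraries (circles) and 2 atorvastatin libraries (squares). Atorvastatin 2 is high for stellate cell and fibroblast, smooth muscle, adipocyte and mesothelium, and skeletal muscle lists and low for the erythroid list. Atorvastatin 1 lies near the controls for these lists. For the dendritic cell and MHC class II list Atorvastatin 2 is the highest library and Atorvastatin 1 the lowest. For the mast cell and basophil list Atorvastatin 1 is the highest.

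Leaving out 1 library at a time showed how far this library sets the outcome. Without Atorvastatin 1, so that Atorvastatin 2 was compared with both controls and assumed to vary like them, 92 genes (0.552%) were called higher and 34 (0.204%) lower. With 1 library in a group, the filter on low counts admits genes that are high in that library alone. Adipoq and Plin1 entered this fit that way, and the adipocyte and mesothelium list held 9 genes here against 7 in the main fit. Calls of such genes were set by how they passed the filter and are no support for a difference. The list medians were 0.97 for fatty acid and triglyceride synthesis, 1.58 for smooth muscle and 1.79 for adipocyte and mesothelium genes. They were 0.30 for stellate cell and fibroblast genes and -2.09 for erythroid genes. Among single genes the log2 fold change was 3.67 ± 0.45 for Scd, -3.62 ± 0.39 for Cyp8b1 and -3.71 ± 0.60 for the histidine decarboxylase Hdc. Of 25 genes of cholesterol synthesis and SREBP2 targets 0 were called, with a median of 0.71. Without Atorvastatin 2, 2 genes (0.0121%) were called, both higher: Abhd3 (log2 5.16, adjusted p = 0.0013 by edgeR) and Fgf21 (log2 3.21, adjusted p = 0.00611). Without Control 1, and likewise without Control 2, 0 genes were called (0%).

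The same drug was given to rats that also received 100 mg/kg of HCB, in 4 other libraries that share none with this comparison. As given above, those libraries also differed from the ones compared here in Y-linked genes, Afp, H19 and Cyp2c11. HCB cannot be told apart from these differences, so neither a disagreement nor an interaction below can be assigned to HCB. For the 8 genes named on the higher side, the log2 fold change of atorvastatin plus HCB over HCB was above 0 in 5 (49.4% of all genes), and for the 8 on the lower side it was below 0 in 4 of the 7 with an estimate, since LOC120093322 gave none there. Cdh11 differed by -0.13 ± 0.31 there, against 1.56 here, and Gys2 by -0.04 against -1.08. Pbld1 differed by -0.40 and Scgb1a1 by -1.72, the same direction as here. For cholesterol synthesis and SREBP2 targets 7 of 25 were above 0 with HCB and the median was -0.25, and for fatty acid synthesis 11 of 18 were, with a median of 0.10. The difference between both atorvastatin contrasts was tested as an interaction in the model of all 8 libraries. By edgeR it was called for 0 of 16591 genes (0%), with 391 (2.36%) at an unadjusted p under 0.05. DESeq2 called 5 genes, Nim1k, Atp2b2, Ttn, Zfp354a and ENSRNOG00000066867, and edgeR with no filter on low counts called 70. Without Atorvastatin 1 edgeR called 5, of which Ttn was also among those of DESeq2.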

How the data were processed

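RNA of 2 control and 2 atorvastatin rat livers was measured by paired-end RNA sequencing, with 4 HCB-given livers used only where stated. The deposited table holds whole-number counts per gene: the submitters' processing notes name fastp 0.23.4 and STAR 2.7.10b, and the counter was featureCounts 2.0.6 on exon features of Ensembl 111 (mRatBN7.2), per the file headers. It was run without a strand option, so overlapping antisense genes cannot be told apart, and without multimapping reads. The deposited summary holds the count of reads in each assignment class. Those reads total 508 M, 2.04 times the 249 M stated, so mates appear to have been counted singly. The authors' own tests used DESeq2 1.42.1 in R 4.3.2, per the submitters' processing notes.

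The 4 libraries were tested on these counts by edgeR 4.0.16 under R 4.3.3 (TMM, filterByExpr by group, robust quasi-likelihood, no covariate), with Benjamini-Hochberg adjustment over the 15896 genes kept and a threshold of 0.05. DESeq2 1.42.0 and the settings in the closing section stood beside it. CPM is scaled within the 4 libraries unless stated, and log values carry a prior count of 2. The floor for a group at 0 is 6 reads (3 read pairs) over the group, for counting error only. The SD between replicates of a list is that of its mean log2(CPM + 0.25). Lists (49, with 662 of 690 symbols found) are described by counts and medians, with no test. The scripts were tested on simulated data.

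The genes and lists were chosen with earlier results of these data known. Genes were named by rule: the 8 per direction with the smallest p, a symbol, groups apart and at least 1 CPM in the higher group, from the 4-library and the 8-library model; 2 per list by p; 20 in any case; and the 10 highest per kb. Not all of the 134 are printed, and some are not reported here. Sds, Srebf1, Fads1, Fads2, Cyp8b1, Adipoq, Plin1, Msln and Hdc, and the genes called only when a library was left out, were chosen after their values were seen.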

Additional observations from a re-analysis of the deposited data

How the results depend on the processing

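The count of 0 called genes for atorvastatin against control held with all 8 libraries, DESeq2 size factors, library totals alone, upper quartile scaling, a filter of 1 CPM in 2 libraries, no robust estimation, halved counts and the outside-exon share as a covariate in 4 or 8 libraries. It was 2 with DESeq2, 1 with no filter on low counts (Abhd3) and, in an alternative chosen after seeing the data, 1 with DESeq2 on 8 libraries at 5 counts in 3 libraries and a log2 fold change beyond 2 (ENSRNOG00000066867). Leaving out each library gave 0 to 126 called genes, 126 of them without Atorvastatin 1, and the cause was not tested. With the replicate number as a block 0 genes were called (smallest adjusted p = 0.7213 by edgeR); the labels share only a number, the deviations of same-numbered libraries correlated across genes with r = 0.29, and 514 genes rather than 151 had an unadjusted p under 0.05. With the outside-exon share as a covariate in 4 libraries, 769 genes had an unadjusted p under 0.05 (smallest adjusted p = 0.3552 by edgeR). Under that covariate 13 of the 49 list medians changed sign. The interaction was called for 5 genes with DESeq2 and 70 with no filter, and for 0 to 5 genes when each library was left out, 5 of them without Atorvastatin 1. The median over the 49 list medians was -0.01, and from -0.24 to 0.17 with a library left out. Of genes with an unadjusted p under 0.05, 57.6% were higher with TMM and 81.4% with library totals alone. The difference in outside-exon share was 6.27 points of uniquely mapped reads. Over all alternatives 110 of 784 list medians and 70 of 2125 named gene values changed sign. With 2 rats per group there are 2 residual degrees of freedom per gene. The edgeR fit also borrows spread across genes, for a median of 6.78 degrees of freedom in total. The median SE was 0.32 on the log2 scale, which limits what could be called.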
